A study of Mus musculus with 12 samples.

Results

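A set of 35 genes that load, display and act on antigen, or that mark dendritic cells, was followed across 12 mouse skin wounds. The members are a list of symbols chosen for the known roles of the genes, with earlier results of these data known. They were found in the gene count files through their Ensembl identifiers. All 35 had at least 15 counts over the 12 libraries, with H2-Oa lowest at 224 counts, and all 35 passed the filter on low counts that left 18618 of 54232 listed genes for testing. The wounds were made with a 6 mm punch through the full thickness of the back skin of male C57BLKS/J mice of genotype Lepr (db/db), aged 12.5 weeks. These mice lack a working leptin receptor and are obese and diabetic. The wounds were taken on day 10. In the TD group, 5 wounds lay under a Tegaderm film dressing alone. In the Strain group, 4 wounds wore a patch made to stretch the tissue by about 30%, and in the No Strain group 3 wounds wore a patch that did not. Every wound of the 3 groups carried the db/db mutation, so no comparison here bears on diabetes itself. Whether some wounds came from a shared mouse is not stated. Each library was taken as 1 replicate, and p-values measure only the spread between these libraries, which may be technical.

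Major histocompatibility complex (MHC) class I molecules, called H2 in the mouse, show peptides from inside almost any nucleated cell to CD8 T cells. Their peptides are cut by the proteasome, whose immune form carries the subunits encoded by Psmb8, Psmb9 and Psmb10, and are pumped into the endoplasmic reticulum by the transporter of Tap1 and Tap2. MHC class II molecules show peptides from engulfed material to CD4 T cells and are made mainly by dendritic cells, B cells and activated macrophages. The invariant chain, encoded by Cd74, guards the class II groove until the protease cathepsin S (Ctss) degrades it. The coactivators encoded by Ciita and Nlrc5 switch on class II and class I genes, and interferon gamma is a known inducer of both sets. In skin, Langerhans cells of the epidermis and dendritic cells of the dermis carry antigen to lymph nodes.

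Libraries held between 20354677 and 25059371 counts. A floor of 3 counts equalled at most 0.149 CPM, the count scaled to library size and composition. No pair of replicates agreed within sampling noise, with a chi-square per degree of freedom between 9.11 and 71.9 over 19 pairs. Skin markers were present throughout: the sum of 6 keratinocyte genes lay between 5515 and 15906 CPM, and that of 6 fibroblast genes between 41966 and 73052 CPM. Among the 22 class I and class II genes of the set, strain replicate 1 stood apart from the other strain libraries. It was the lowest of the 4 for 21 of the 22 genes and lay within the range of the TD libraries for 15 and below it for 5. TD replicate 3 was the highest of the 5 TD libraries for 20 of the 22. The sample titles carry 1 range of numbers for the film-dressed wounds and another for the patched wounds. What the numbers record is not stated, and if it is an order of handling, order and treatment cannot be told apart.

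Against the film dressing, wounds under either patch had more RNA of several genes of antigen presentation. The class II gene H2-Aa, the protease gene Ctss, the immunoproteasome genes Psmb8 and Psmb10, the costimulatory gene Cd86 and the transcription factor Irf8 rose with both patches. Of the other 9 dendritic and Langerhans cell genes none passed as higher, and Irf4 fell with both patches. For No Strain against TD, 11 of the 35 genes passed as higher and 2 as lower (31.4% and 5.71%), by edgeR's quasi-likelihood test with a threshold of 0.05 on the adjusted p. Over all 18618 genes tested, 9.35% were higher and 8.40% lower in that comparison. For Strain against TD, 6 genes were higher and 1 lower, or 17.1% and 2.86%, against 6.20% higher and 6.41% lower over all genes. With only 2 and 1 lower genes, the shares of lower genes are not read as different from those over all genes. Before adjustment, 23 of the 35 genes had a p under 0.05 in each comparison, against 33.5% of all genes for No Strain and 29.5% for Strain. Libraries did not overlap with TD for 14 higher and 3 lower genes without strain (14.3% and 12.5% of all genes) and for 3 higher and 2 lower genes under strain (7.47% and 7.15%). The median log2 change of the 35 genes was 0.68 for No Strain and 0.59 for Strain, beside 0.0045 and 0.018 over all genes tested. The 7 genes called for Strain were all among the 13 called for No Strain, and both comparisons use the same TD libraries. In bulk tissue, more cells of a type and more RNA per cell cannot be told apart.

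**Figure D1:**
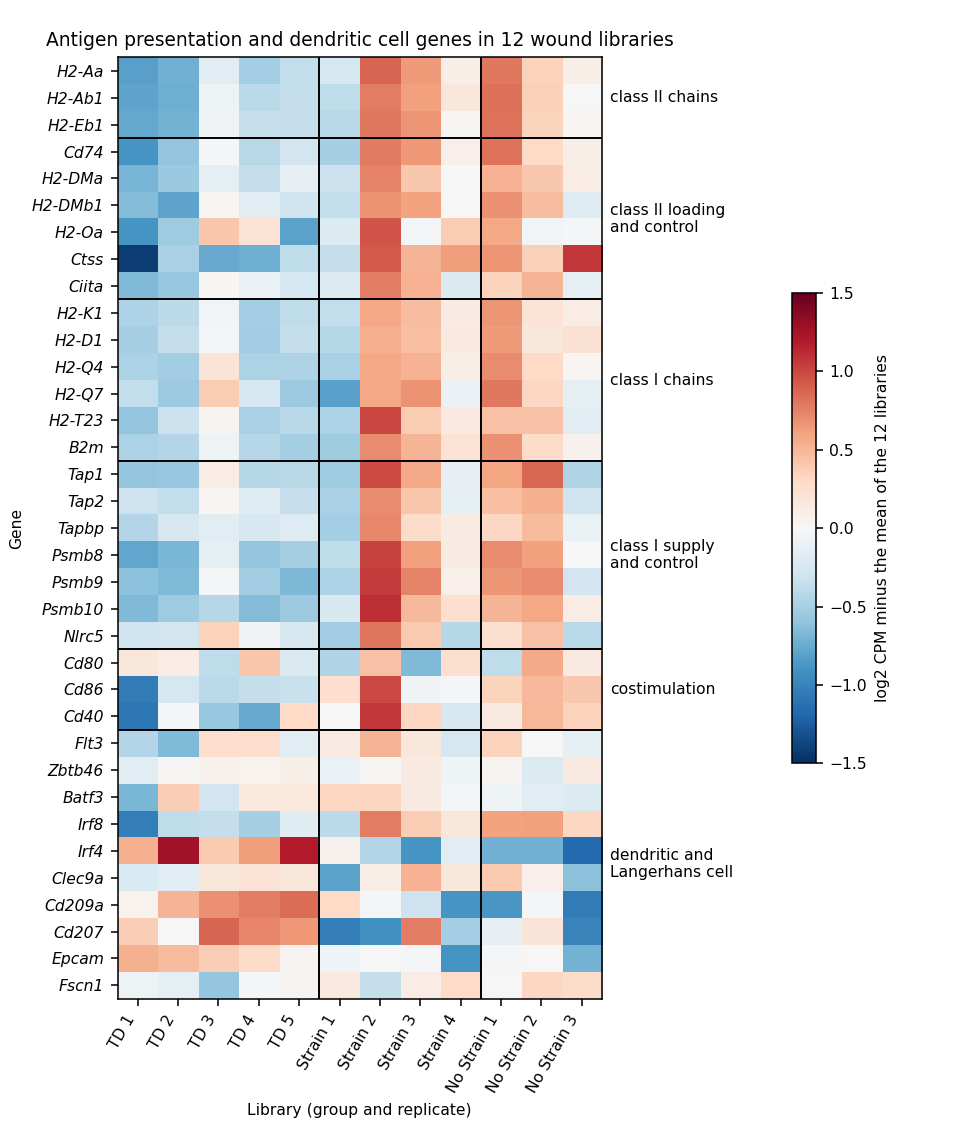
Level of each of the 35 genes (rows, grouped by role) in each of the 12 libraries (columns), as log2 CPM minus the gene's mean over the 12 libraries; red is above and blue below the mean, and the scale ends at 1.5 log2 units. Most class I and class II genes are red in strain replicates 2 and 3 and in no-strain replicates 1 and 2, strain replicate 1 resembles TD, and Irf4 and Cd209a run the other way.

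Single libraries moved these counts. The Strain count of 7 became 17 without strain replicate 1, 2 without strain replicate 2, and 3 without TD replicate 1, 2 or 4, while the No Strain count of 13 became 2, 4 and 7 without no-strain replicates 1, 2 and 3 and 6 without TD replicate 1, 2 or 4. With the mean of 8 skeletal muscle genes as a covariate, 0 genes passed for Strain and 2 for No Strain, Irf4 and Cd209a; those 8 genes, of which 6 passed as lower under strain and 2 without strain, summed to 6107 to 14439 CPM in TD, 2699 to 5094 CPM under strain and 3700.2 to 8406 CPM without strain. Over all genes tested, that covariate left 1 call for Strain, from 2349, and 279 (1.5%) for No Strain, from 3305. The median log2 change of the 35 genes in that fit was 0.78 for Strain and 0.87 for No Strain. The part of muscle in these results beyond that fit was not tested. The letter in each sample title, which the labels leave unexplained, was unevenly spread over the groups: 1 L and 4 R in TD, 3 L and 1 R under strain, and 2 L and 1 R without strain. With that letter as a covariate, 6 genes passed for Strain, all higher, and the calls over all genes fell from 12.6% to 4.29%. Irf4, Irf8, Psmb8 and Cd86 no longer passed for Strain (edgeR adjusted p = 0.0525, 0.0533, 0.0523 and 0.111), while H2-Ab1, H2-Eb1 and Cd74 did. For No Strain, 14 genes passed, and Cd86 and Cd209a no longer did (edgeR adjusted p = 0.0662 and 0.0635).

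Of the members, 16 lie in the H2 region of the GRCm38 genome, at chr17:33915899-36032855, Psmb8, Psmb9, Tap1, Tap2 and Tapbp among them. Class II and class I promoters are known to share a module of short boxes, an X2 box with the letters TGACG and a Y box with ATTGG, on which Ciita and Nlrc5 act through bound factors. The 250 bases before the transcription start are shown for 4 genes of these families, because they come from both families that differed in the wounds. Sequences are from RefSeq on GRCm38.p6, written 5′ to 3′ on the gene's strand. Capitals mark matches on either strand to the X2 box letters, to the Y box letters, to an NF-kB motif (GGG then TTCCC after any 2 bases) and to an interferon response element (TTTC, any 2 bases, then TTTC again). The capital run in the later part of H2-Aa that starts with TGACG holds that motif on both strands, overlapping.
H2-Aa (chr17:34287824-34288073, minus strand): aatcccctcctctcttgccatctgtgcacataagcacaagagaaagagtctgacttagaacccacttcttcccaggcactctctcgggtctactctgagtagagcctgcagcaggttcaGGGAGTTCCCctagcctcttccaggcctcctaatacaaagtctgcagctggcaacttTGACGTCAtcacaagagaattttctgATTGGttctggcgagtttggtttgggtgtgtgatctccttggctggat
H2-Eb1 (chr17:34305617-34305866, plus strand): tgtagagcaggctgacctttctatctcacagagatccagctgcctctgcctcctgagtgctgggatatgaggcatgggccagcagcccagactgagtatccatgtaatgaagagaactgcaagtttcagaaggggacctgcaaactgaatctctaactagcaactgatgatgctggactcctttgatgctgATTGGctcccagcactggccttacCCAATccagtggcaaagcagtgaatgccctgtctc
H2-K1 (chr17:34000348-34000597, minus strand): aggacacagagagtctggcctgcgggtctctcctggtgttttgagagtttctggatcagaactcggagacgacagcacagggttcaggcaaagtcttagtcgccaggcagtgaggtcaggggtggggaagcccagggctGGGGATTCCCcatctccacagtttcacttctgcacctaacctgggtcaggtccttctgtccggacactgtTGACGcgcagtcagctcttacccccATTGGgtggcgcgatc
B2m (chr2:122147437-122147686, plus strand): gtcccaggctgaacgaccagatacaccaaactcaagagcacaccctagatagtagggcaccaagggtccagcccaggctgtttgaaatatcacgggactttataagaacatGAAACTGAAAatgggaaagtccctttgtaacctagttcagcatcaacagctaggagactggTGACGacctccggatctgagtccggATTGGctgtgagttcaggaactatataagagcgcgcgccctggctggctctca
Promoters of 28 of the 35 members were in the table. ATTGG was found in 15 of these 28, including 6 of 6 class I chain genes and 1 of 10 dendritic and Langerhans cell genes, against 33.8% of 32817 mouse promoters of this length. TGACG was found in 9 of 28 (17.7% of all promoters), the NF-kB motif in 6 of 28 (1.54%) and the interferon response element in 3 of 28 (2.97%). The X1 box letters CCNAGNNAC were in 6 of 28 (14.5%) and TTCNNNGAA, a STAT motif, in 3 of 28 (7.01%). A spaced pair, the X2 box letters followed by the Y box letters on the same strand with 18 to 22 bases between, was searched after the sequences had been seen. It was found in H2-Aa (21 bases between), H2-K1, H2-D1 and B2m (20 each) and H2-Q7 (19), or 5 of 28 members, and in 81 of all 32817 promoters (0.247%). Paralogs such as the class I genes share ancestry, and the reference is C57BL/6J, not the strain studied. These matches describe letters, not bound sites.

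Of the 3 class II chain genes, both I-A chains passed without strain and 1 under strain. H2-Aa (ENSMUSG00000036594, chr17:34282744-34287823), the alpha chain of the I-A molecule, stood at 249, 268, 395, 309 and 340.3 CPM in TD, 365, 803, 683 and 471 CPM under strain and 764, 559 and 469 CPM without strain. Every no-strain library lay above every TD library, and strain replicate 1 fell within the TD range. Its log2 change was 0.94 with a standard error of 0.249 for No Strain (edgeR adjusted p = 0.0263) and 0.89 with 0.232 for Strain (edgeR adjusted p = 0.031). H2-Ab1 (chr17:34257689-34269419), its partner beta chain, stood at 187, 194, 308, 244 and 253 CPM in TD, 249, 551, 494 and 364 CPM under strain and 572, 416 and 325 CPM without strain. It rose by 0.88 log2 units without strain (SE 0.259, edgeR adjusted p = 0.0375) and missed the threshold under strain at 0.80 (SE 0.241, edgeR adjusted p = 0.0502). The H2-Aa calls held in 7 of 12 fits that each left out 1 library in each comparison, and the H2-Ab1 call in 6 of 12. H2-Eb1 (chr17:34305867-34316674), the beta chain of the I-E molecule and the most abundant of the 3 chains per kilobase of exon (169.6 CPM per kb over the 12 libraries), stood at 181, 188, 297, 243 and 240.0 CPM in TD, 231, 531, 488 and 312 CPM under strain and 540.1, 388 and 315 CPM without strain. Its log2 changes of 0.85 and 0.76 did not pass (edgeR adjusted p = 0.0509 for No Strain and 0.0681 for Strain), although the no-strain and TD libraries did not overlap. The 3 chains ranked the libraries alike: strain replicate 2 and no-strain replicate 1 were the highest of their groups and strain replicate 1 the lowest of its group for each chain.

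C57BLKS/J mice are known to carry the d haplotype of H2, whereas the reference genome comes from C57BL/6J, which carries the b haplotype and has an inactive I-E alpha gene. That gene, annotated as the pseudogene H2-Ea-ps (ENSMUSG00000036322), was abundant here, at 122, 139, 214, 183 and 168 CPM in TD, 176, 395, 330.0 and 229 CPM under strain and 381, 283 and 229 CPM without strain. It stood at 229 CPM per kb over all libraries, beside 125 for H2-Aa and 135 for H2-Ab1. It changed by 0.85 without strain (SE 0.263, edgeR adjusted p = 0.0461) and by 0.77 under strain (SE 0.245, edgeR adjusted p = 0.06), sizes near those of H2-Eb1. How reads from d alleles were assigned among H2 genes was not tested, so levels set between H2 genes are uncertain. All 12 wounds came from the same strain, and each change is measured within a gene.

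Genes that load class II peptides showed their largest change in the protease. Ctss (ENSMUSG00000038642, chr3:95526786-95556403) stood at 315, 603, 498, 507 and 646 CPM in TD, 661, 1595, 1203 and 1302 CPM under strain and 1333, 1081 and 1763 CPM without strain. Every patch library was above every TD library. The log2 change was 1.44 without strain (SE 0.279, edgeR adjusted p = 0.00767), a 2.71-fold rise, and 1.21 under strain (SE 0.262, edgeR adjusted p = 0.0162), a 2.32-fold rise. The No Strain call held in all 12 fits that each left out 1 library, and the Strain call in 11 of 12, lost without strain replicate 2 (edgeR adjusted p = 0.0572). H2-DMa (chr17:34119541-34139101), a chain of the DM molecule that exchanges class II peptides, stood at 23.3, 25.7, 34.4, 29.6 and 34.8 CPM in TD, 30.3, 63.5, 50.3 and 37.6 CPM under strain and 54.5, 50.3 and 41.0 CPM without strain. It rose without strain by 0.72 (SE 0.216, edgeR adjusted p = 0.0413) and had a change of 0.62 under strain (SE 0.201, edgeR adjusted p = 0.0638). Its call held in 5 of 12 fits that each left out 1 library. It shares 360 exon bases with Brd2 on the other strand, and the strand setting of the counting is not given in the sources used here.

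The other loading genes had positive changes that did not pass. Cd74 stood at 362, 444, 658, 504 and 553 CPM in TD, 475, 1149, 1048 and 704 CPM under strain and 1181, 823 and 713 CPM without strain. The log2 changes were 0.85 (edgeR adjusted p = 0.0576) and 0.74 (edgeR adjusted p = 0.0831) for No Strain and Strain. Ciita, the class II coactivator, ran from 20.0 to 54.1 CPM, with changes of 0.56 (edgeR adjusted p = 0.141) and 0.58 (edgeR adjusted p = 0.12) and libraries that overlapped between groups. H2-DMb1, the partner chain of H2-DMa, had changes of 0.71 and 0.63 (edgeR adjusted p = 0.0932 and 0.121). H2-Oa, a chain of the DO molecule that restrains DM and is typical of B cells, was low at 0.370 to 1.53 CPM.

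Of the 6 class I chain genes, 3 passed as higher for No Strain and 0 for Strain, with log2 changes of 0.59 to 0.74 without strain. H2-K1 (ENSMUSG00000061232, chr17:33996017-34000347), a classical class I heavy chain, stood at 772, 814, 1034, 752 and 821 CPM in TD, 824, 1599, 1468 and 1166 CPM under strain and 1689, 1227 and 1155 CPM without strain. H2-D1 (chr17:35262730-35267499), the other classical heavy chain measured, stood at 1074, 1182, 1499, 1059.7 and 1186 CPM in TD, 1129, 2222, 2069 and 1687 CPM under strain and 2363, 1705 and 1774 CPM without strain. B2m (chr2:122147686-122153083), the light chain of every class I molecule and the most abundant gene of its role per kilobase, stood at 1063, 1083, 1390.4, 1098 and 1035 CPM in TD, 1016, 2412, 2090.1 and 1715 CPM under strain and 2357, 1783 and 1535 CPM without strain. For these 3 genes every no-strain library exceeded every TD library, and strain replicate 1 lay within the TD range or below it. The log2 changes without strain were 0.69 for H2-K1 (SE 0.202, edgeR adjusted p = 0.0361), 0.70 for H2-D1 (SE 0.204, edgeR adjusted p = 0.0365) and 0.74 for B2m (SE 0.235, edgeR adjusted p = 0.0496). Under strain they were 0.59, 0.57 and 0.67, with edgeR adjusted p = 0.0592, 0.0708 and 0.0636. The B2m call was the weakest of the 3, holding in 2 of 12 fits that each left out 1 library, against 5 of 12 for each of the others. The nonclassical heavy chains H2-Q4, H2-Q7 and H2-T23 had changes of 0.70, 0.59 and 0.60 without strain and 0.56, 0.42 and 0.70 under strain, none past the threshold. Reads that match several of these near-identical heavy chain genes may have been split or dropped, so their values are uncertain as single genes.

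Among genes that supply class I peptides, subunits of the immunoproteasome rose. Psmb10 (ENSMUSG00000031897, chr8:105935735-105938444) stood at 35.9, 39.2, 42.2, 36.1 and 38.7 CPM in TD, 48.1, 122, 79.6 and 67.2 CPM under strain and 80.4, 84.6 and 61.2 CPM without strain. All 7 patch libraries exceeded the highest TD library. The log2 change was 1.05 under strain (SE 0.212, edgeR adjusted p = 0.0135) and 0.97 without strain (SE 0.227, edgeR adjusted p = 0.016). The Strain call held in all 12 fits that each left out 1 library and the No Strain call in 10 of 12, lost without no-strain replicate 1 or 2. Psmb8 (chr17:34197721-34201454) stood at 38.7, 41.1, 60.1, 44.0 and 47.0 CPM in TD, 51.0, 134, 102 and 72.4 CPM under strain and 108, 102 and 65.8 CPM without strain. It changed by 0.96 under strain (SE 0.254, edgeR adjusted p = 0.0325) and by 0.99 without strain (SE 0.272, edgeR adjusted p = 0.0294), with strain replicate 1 inside the TD range. These calls held in 6 and 7 of 12 fits that each left out 1 library. Psmb9, the third subunit, had similar values of 0.94 and 0.91 that did not pass (edgeR adjusted p = 0.0597 and 0.0709).

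The peptide pump and its partner did not pass. Tap1 had log2 changes of 0.69 under strain and 0.79 without strain (edgeR adjusted p = 0.175 and 0.134), and Tap2 had 0.43 and 0.50 (edgeR adjusted p = 0.249 and 0.193). Tap1 and Psmb9 lie head to head and share 212 exon bases on opposite strands. Tapbp, which encodes tapasin, the bridge between the pump and class I, was the most abundant gene of this role per kilobase and stood at 168, 192, 204, 193 and 199 CPM in TD, 159.5, 374, 275 and 248 CPM under strain and 283, 315 and 213 CPM without strain. The no-strain libraries did not overlap TD, and the change of 0.50 had an edgeR adjusted p of 0.126. Nlrc5, the class I coactivator, was nearest to no change, at 0.25 (95% interval -0.36 to 0.86) under strain and 0.21 (-0.45 to 0.87) without strain.

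**Figure D2:**
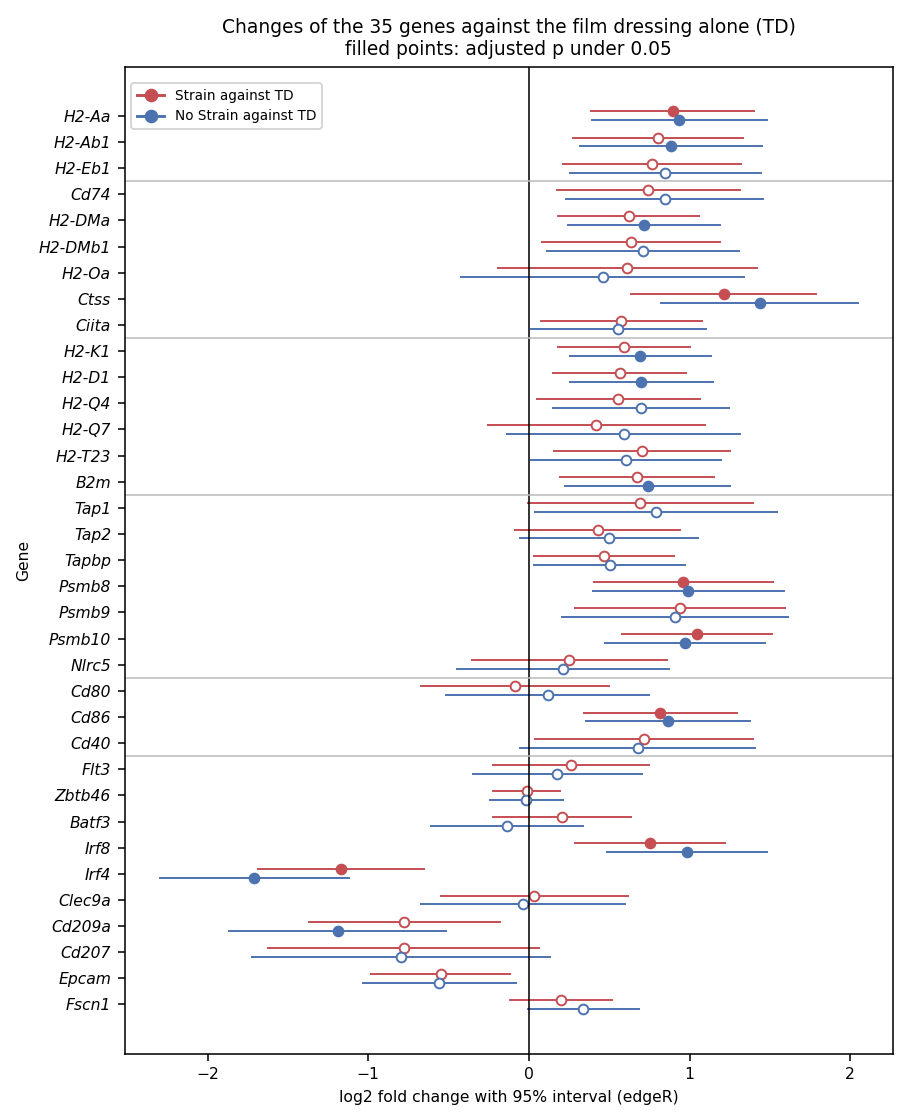
Log2 fold change (horizontal axis) of each of the 35 genes against TD, red for Strain and blue for No Strain, with 95% intervals from the edgeR fit; filled points have an adjusted p under 0.05 and grey lines separate the roles. All 22 class I and class II genes lie to the right of 0 in both comparisons, Irf4 lies farthest to the left at -1.17 and -1.71, and Zbtb46 lies close to 0.

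Costimulatory genes encode the second signal that an antigen-presenting cell gives to a T cell. Cd86 (ENSMUSG00000022901, chr16:36603869-36666081), the most abundant of the 3 per kilobase, stood at 8.31, 14.3, 13.0, 13.5 and 13.7 CPM in TD, 20.6, 34.3, 16.6 and 17.1 CPM under strain and 21.8, 24.2 and 22.8 CPM without strain. All 7 patch libraries were above all 5 TD libraries. It rose by 0.82 log2 units under strain (SE 0.218, edgeR adjusted p = 0.0332) and by 0.87 without strain (SE 0.233, edgeR adjusted p = 0.0276), calls that held in 6 and 8 of 12 fits that each left out 1 library. Cd80, whose protein binds the same costimulatory receptors on T cells as that of Cd86, had values of -0.09 (95% interval -0.67 to 0.50) and 0.12 (-0.51 to 0.75). Cd40, the receptor through which T cells license dendritic cells, had 0.72 and 0.68 and did not pass (edgeR adjusted p = 0.147 and 0.181).

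The dendritic cell genes split. The transcription factors Irf8 and Irf4, which steer dendritic cells toward different subsets and are also used by macrophages and lymphocytes, Irf4 by melanocytes too, moved in opposite directions. Irf8 (ENSMUSG00000041515, chr8:120736358-120756694) stood at 36.4, 57.6, 58.4, 52.8 and 65.9 CPM in TD, 57.1, 127, 97.3 and 84.1 CPM under strain and 114, 115 and 93.1 CPM without strain. It rose by 0.98 without strain (SE 0.228, edgeR adjusted p = 0.0155), with no overlap with TD, and by 0.75 under strain (SE 0.213, edgeR adjusted p = 0.0406), where strain replicate 1 lay inside the TD range. The Strain call for Irf8 held in 3 of 12 fits that each left out 1 library and the No Strain call in 11 of 12, lost without no-strain replicate 1. Irf4 (ENSMUSG00000021356, chr13:30749226-30766976) stood at 15.4, 25.6, 14.0, 16.5 and 24.4 CPM in TD, 11.1, 7.79, 5.72 and 9.54 CPM under strain and 6.44, 6.44 and 4.69 CPM without strain. Each of the 7 patch libraries was below the lowest TD library. Irf4 fell by 1.17 log2 units under strain (SE 0.235, edgeR adjusted p = 0.0128) and by 1.71 without strain (SE 0.269, edgeR adjusted p = 0.00357). Both Irf4 calls held in all 12 fits that each left out 1 library. With the title letter as a covariate the log2 change under strain was -1.18, just short of the threshold (edgeR adjusted p = 0.0525), and that without strain was -1.72 and passed (edgeR adjusted p = 0.0112).

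Cd209a (ENSMUSG00000031494, chr8:3743397-3748984), a lectin of dermal and monocyte-derived dendritic cells, stood at 4.69, 6.45, 7.29, 7.75 and 8.11 CPM in TD, 5.56, 4.46, 3.62 and 2.40 CPM under strain and 2.43, 4.42 and 2.14 CPM without strain. It fell by 1.19 log2 units without strain (SE 0.308, edgeR adjusted p = 0.0236), where the groups did not overlap, a call lost without no-strain replicate 1 or 3 (highest edgeR adjusted p = 0.0951). Under strain its change of -0.78 did not pass (SE 0.273, edgeR adjusted p = 0.0834). Zbtb46, Flt3, Clec9a and Batf3, genes used by conventional dendritic cells, showed no change past the threshold. Zbtb46, a transcription factor of that lineage, stood at 9.42, 10.6, 11.0, 10.9 and 11.2 CPM in TD, 9.79, 10.6, 11.6 and 10.1 CPM under strain and 10.8, 9.14 and 11.6 CPM without strain, with a 95% interval of the log2 change of -0.22 to 0.19 under strain and -0.24 to 0.21 without strain. For Flt3, the receptor for their growth factor, the intervals were -0.22 to 0.75 and -0.35 to 0.70. For Clec9a, a receptor of the cross-presenting subset, they were -0.55 to 0.62 and -0.67 to 0.60, and for Batf3, a transcription factor of that subset, -0.22 to 0.63 and -0.61 to 0.34. The Zbtb46 intervals are the narrowest of these, and each interval of the other 3 genes reaches 0.60 or more on at least 1 side. Whether the RNA of these genes came from dendritic cells alone was not tested, so a steady bulk level does not give the number of such cells.

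Cd207 and Epcam, the members listed for Langerhans cells, were lower in value without passing. Cd207, which encodes langerin, stood at 6.87, 5.26, 9.81, 8.88 and 8.37 CPM in TD, 2.53, 2.79, 9.11 and 3.69 CPM under strain and 4.86, 6.05 and 2.60 CPM without strain, with changes of -0.78 and -0.80 (edgeR adjusted p = 0.201 and 0.215). Strain replicate 3, at 9.11 CPM, lay apart from the other strain libraries and inside the TD range. Epcam, an adhesion molecule of Langerhans cells and also of hair follicle epithelium, stood at 80.8, 77.6, 72.5, 68.6 and 57.4 CPM in TD, 53.7, 56.2, 55.0 and 30.1 CPM under strain and 54.8, 56.3 and 34.3 CPM without strain. Every patch library was below every TD library, and the changes of -0.55 and -0.56 did not pass (edgeR adjusted p = 0.0906 and 0.0988). A 4-gene list kept for Langerhans cells adds Mfge8 and Il34, of which Il34 is a keratinocyte cytokine. The list had 2 of 4 genes lower under strain (Il34 and Mfge8) and 1 without strain (Il34), against 6.41% and 8.40% of all genes. Mfge8 ran from 246 to 506 CPM over the 12 libraries, and Cd207 from 2.53 to 9.81 CPM. Cd207, Epcam, Il34 and Mfge8 are not read here as markers of Langerhans cells alone. Fscn1, an actin-bundling gene of mature dendritic cells that fibroblasts and endothelium also express, was the most abundant gene of this role per kilobase and stood at 143, 137, 101, 149 and 155 CPM in TD, 166, 117, 162 and 184 CPM under strain and 150.0, 186 and 183 CPM without strain, with changes of 0.20 and 0.34 that did not pass (edgeR adjusted p = 0.389 and 0.158).

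**Figure D3:**
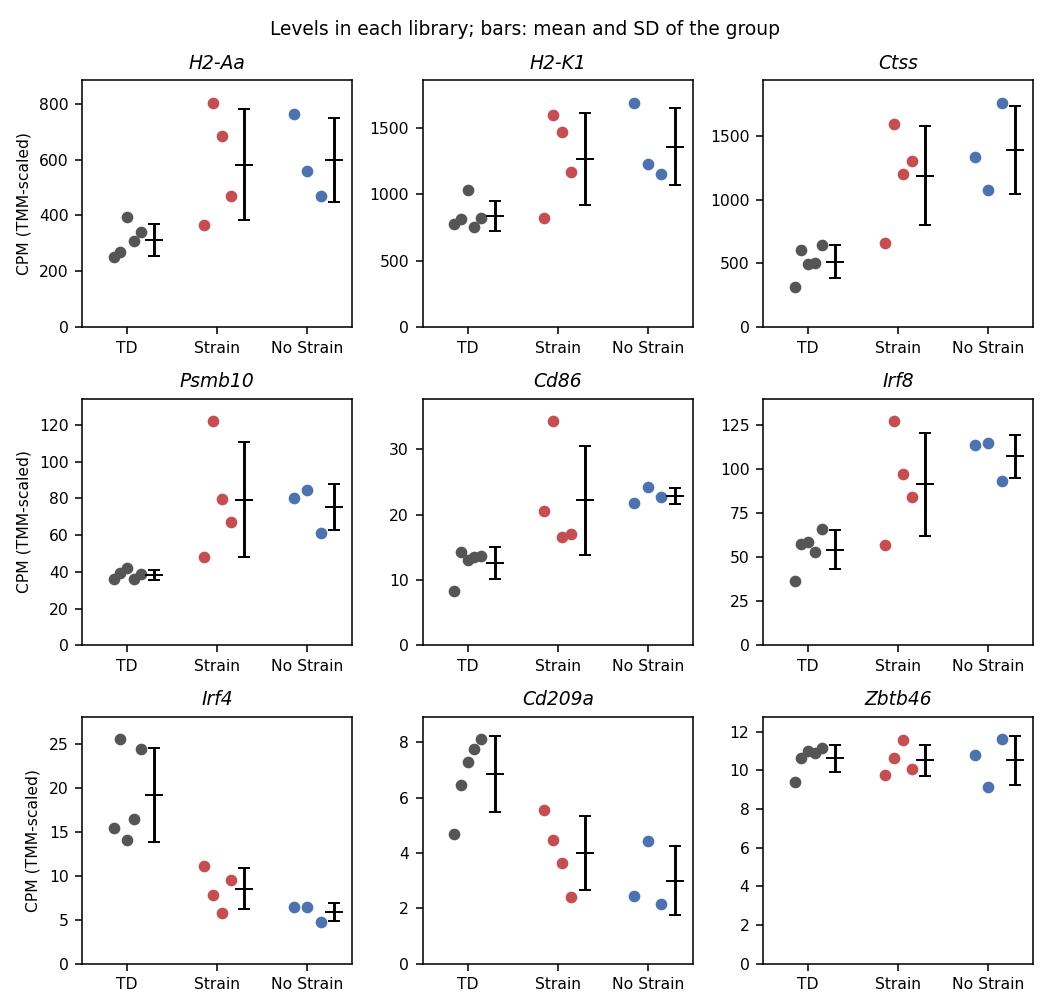
Level of 9 members (CPM, axis from 0) in each library of the 3 groups; points are libraries and the black marks give the group mean and SD (n = 5, 4 and 3). Ctss, Psmb10 and Cd86 show no overlap between TD and either patch group, Irf4 shows none in the other direction, and Zbtb46 stays between 9.14 and 11.6 CPM in all 12 libraries.

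The comparison of Strain with No Strain asks what the imposed stretch adds to wearing a patch. None of the 35 genes passed in the edgeR test, as was true of all 18618 genes tested (0% called), and 0 of the 35 had an unadjusted p under 0.05, against 5.61% of all genes. DESeq2 also called 0 of the 35, and 28 of all genes. The median log2 difference of the 35 genes was -0.04, beside 0.0084 over all genes. Irf4 and Batf3 had the smallest p. The log2 difference of Irf4 was 0.54 (95% interval -0.05 to 1.13, edgeR adjusted p = 0.872), and that of Batf3, whose libraries were higher under strain without overlap, was 0.34 (-0.15 to 0.83, edgeR adjusted p = 0.895). The groups did not overlap for 1 of the 35 genes with strain higher (2.86%, against 2.85% of all genes) and for 0 with strain lower (against 2.77%). For H2-Aa the interval was -0.62 to 0.54, for Ctss -0.88 to 0.43 and for Psmb10 -0.46 to 0.60. Each of these 3 intervals holds a difference of 0.4 log2 units in either direction.

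A wider list of 66 further genes of these pathways, of which 65 could be tested, was read beside the set. For No Strain against TD, 22 of 65 were higher and 4 lower (33.8% and 6.15%, against 9.35% and 8.40% of all genes). For Strain against TD 11 were higher and 3 lower (16.9% and 4.62%, against 6.20% and 6.41%). Their median log2 changes were 0.42 and 0.20. On the class II side, 6 of 15 tested genes were higher without strain and 1 of 15 under strain, or 40% and 6.67%, of which the second is near the share over all genes. On the class I side, 3 of 15 were higher in each comparison: Erap1, which trims peptides, and Psme1 and Psme2, which encode the interferon-inducible proteasome activator. Of 9 genes of the interferon gamma pathway, 6 were higher without strain and 4 under strain, and 0 were lower. Socs1, an inhibitor of that pathway which it also induces, stood at 8.56, 6.82, 7.89, 6.26 and 7.67 CPM in TD, 14.3, 21.2, 12.6 and 12.4 CPM under strain and 25.7, 25.4 and 13.5 CPM without strain. It rose by 1.53 without strain (SE 0.226, edgeR adjusted p = 0.00276) and by 1.02 under strain (SE 0.213, edgeR adjusted p = 0.0143), with no overlap with TD in either. Ifng itself, named here after its values were seen, had 2 to 5 raw counts in the TD libraries, 4, 42, 22 and 17 under strain and 59, 46 and 12 without strain. Strain replicate 1, low in the class I and class II genes, was also the strain library with 4 Ifng counts. That is 1 library, and a link between Ifng and those genes was not tested.

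On the dendritic cell side of the wider list, 7 of 26 genes were higher and 4 lower without strain, and 3 were higher and 3 lower under strain (26.9% and 15.4%, and 11.5% in each direction). The shares over all genes were 9.35% higher and 8.40% lower without strain, and 6.20% and 6.41% under strain. Flt3l, the growth factor for conventional dendritic cells, stood at 12.5, 11.1, 15.0, 12.0 and 13.0 CPM in TD, 6.21, 7.25, 10.3 and 7.57 CPM under strain and 5.49, 6.78 and 6.27 CPM without strain. It fell by 1.04 without strain (SE 0.164, edgeR adjusted p = 0.00355) and by 0.70 under strain (SE 0.146, edgeR adjusted p = 0.0145). Il34, a keratinocyte cytokine on which Langerhans cells depend, stood at 36.7, 35.6, 42.1, 35.7 and 34.9 CPM in TD, 19.2, 18.2, 23.2 and 23.2 CPM under strain and 19.5, 22.7 and 12.7 CPM without strain. It fell by 1.02 without strain (SE 0.164, edgeR adjusted p = 0.00377) and by 0.82 under strain (SE 0.147, edgeR adjusted p = 0.00893). Mgl2, a lectin of dermal dendritic cells and of macrophages, stood at 8.06, 5.79, 12.7, 9.73 and 10.5 CPM in TD, 2.98, 2.21, 4.52 and 1.49 CPM under strain and 2.88, 4.68 and 2.09 CPM without strain. It fell by 1.73 under strain (SE 0.344, edgeR adjusted p = 0.0124) and by 1.54 without strain (SE 0.378, edgeR adjusted p = 0.0196). For all 3 genes every patch library was below every TD library. Of the genes that rose, 4 are named here after their values were seen. Cd274, which encodes the inhibitory ligand PD-L1, rose by 2.14 without strain (SE 0.413, edgeR adjusted p = 0.00748) and by 1.81 under strain (SE 0.390, edgeR adjusted p = 0.0162), with no overlap with TD in either. Ly75, which encodes the endocytic receptor DEC-205, rose by 0.93 and 0.56 (edgeR adjusted p = 0.00624 and 0.0436), and Id2, a transcriptional regulator needed by dendritic cell subsets, by 0.77 and 0.62 (edgeR adjusted p = 0.00888 and 0.0207), for No Strain and Strain. Csf2rb, a receptor chain for the cytokine GM-CSF, rose by 1.09 without strain (edgeR adjusted p = 0.00945) and had a change of 0.63 under strain that did not pass (edgeR adjusted p = 0.0678).

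Some markers of other cells that present antigen or make interferon gamma were also higher in the patch groups. Over all genes, 6.20% were higher and 6.41% lower under strain, and 9.35% and 8.40% without strain. Of 12 monocyte and macrophage markers, 3 were higher in each comparison with TD, Fcgr1, Ccr2 and Ly6c2, and 0 were lower. The lowest value was that of Mrc1, with log2 changes of -0.30 under strain and -0.28 without strain, which did not pass. The sum of the 12 was 2519 to 5432 CPM in TD, 4759 to 7817 CPM under strain and 5065 to 7942 CPM without strain. Lyz2 was the largest part of it, with means of 2081, 3312 and 3513 CPM in TD, Strain and No Strain. In the same order, Csf1r had means of 365, 393 and 416 CPM and Adgre1 of 170, 187 and 195 CPM. The sum therefore does not stand for all 12 markers alike. The 7 T cell markers summed to 24.4 to 34.2 CPM in TD, 34.1 to 89.7 CPM under strain and 39.7 to 72.8 CPM without strain, with 3 of 7 genes higher in each comparison. The 5 natural killer (NK) cell markers summed to 8.55 to 15.1 CPM in TD, 8.60 to 56.0 CPM under strain and 28.8 to 42.9 CPM without strain, with 2 of 5 higher in each. Strain replicate 1 had the lowest NK cell sum of its group, at 8.60 CPM, but not the lowest T cell sum, at 62.8 CPM. The 9 neutrophil markers summed to 392 to 1589 CPM in TD, 767 to 8584 CPM under strain and 2049.8 to 5122 CPM without strain, with 8 of 9 higher under strain and 7 of 9 without strain. The highest sum, in strain replicate 1, was mostly S100a8 and S100a9, at 3634 and 4761 CPM. In that library Csf3r, at 64.0 CPM, was the lowest of the strain libraries, so the sum does not rank libraries by neutrophils. The B cell markers Ms4a1, Cd79a and Cd79b did not pass in either comparison. The levels of these 3 genes were low, from 0.192 to 3.06 CPM over the 12 libraries. Likewise, 6 markers of conventional dendritic cells, 4 of them members of the set, summed to 26.0 to 37.9 CPM in TD, 27.0 to 40.0 CPM under strain and 27.9 to 38.5 CPM without strain, with 0 of 6 higher in either comparison and 1, Cd209a, lower without strain. Within that sum, genes ran in opposite directions. Cd209a had means of 6.86, 4.01 and 3.00 CPM in TD, Strain and No Strain. Ccr7, which did not pass, had means of 4.44, 7.44 and 7.92 CPM. The part of these cells in the changes of class I and class II genes was not tested.

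**Figure D4:**
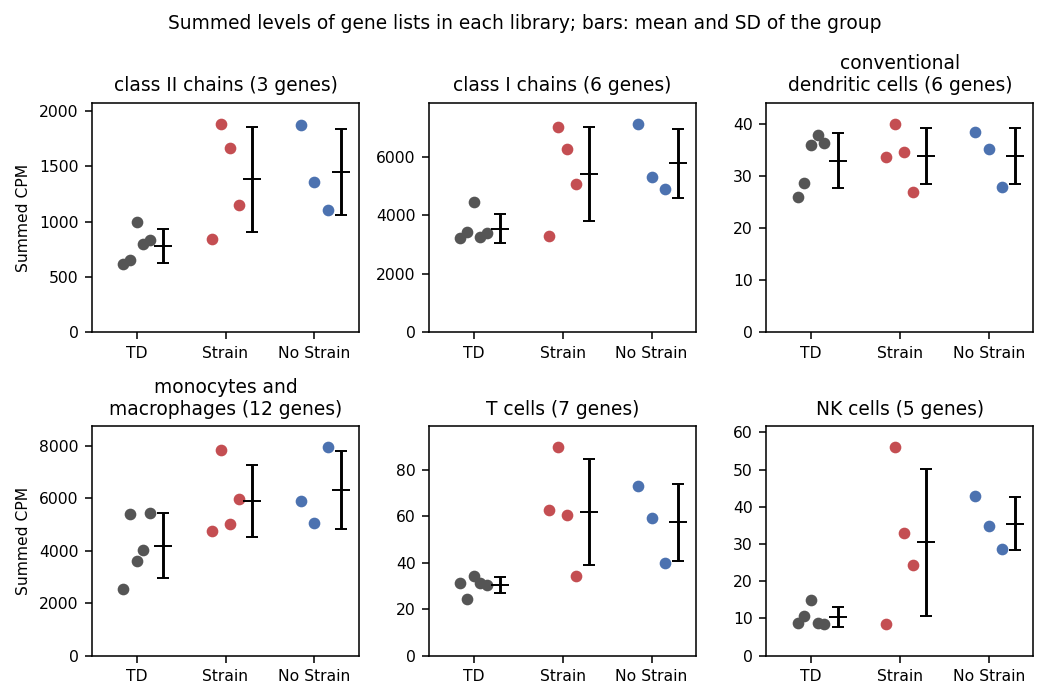
Summed CPM of 6 gene lists in each library (axes from 0), with points for libraries and black marks for the group mean and SD (n = 5, 4 and 3). The class II and class I sums and the T cell and NK cell sums are higher in most patch libraries than in TD, whereas the sums for conventional dendritic cells overlap between all 3 groups, from 26.0 to 40.0 CPM. In that last sum Cd209a and Ccr7 ran in opposite directions.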

How the data were processed

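Poly(A) RNA from each of the 12 wounds was sequenced. Each deposited file gives the raw counts of 1 library by Ensembl gene, as the authors made them, per the file headers. The submitters' processing notes name GRCm38, bcl2fastq 2.17, FastQC, cutadapt, STAR, featureCounts and DESeq2, without their roles. The gene annotation, the strandedness of counting and the handling of reads with several possible genes are not given in the sources used here. Symbols and positions came from GENCODE M21 (54165 of 54232 identifiers matched, and the rest held 0.00387% of counts), and promoter sequences from RefSeq.

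Groups follow the treatment label. Genes were kept by filterByExpr (minimum count 10, minimum total 15). All 12 libraries entered 1 quasi-likelihood fit in edgeR 4.0.16 (R 4.3.3), with TMM scaling (trimmed mean of M-values) and robust spread estimates. Adjusted p-values are Benjamini-Hochberg values over the 18618 genes tested, with a threshold of 0.05. A standard error is the log2 fold change divided by the square root of F, and CPM use TMM-scaled totals. The members and lists were chosen with earlier results of these data known. Full statistics were given by rule to members past the threshold in any comparison and to the most abundant member of each role, to up to 3 wider-list genes with the smallest p in each comparison with TD, to H2-Ea-ps, and, where no member passed, to the 2 with the smallest p. Library values of Cd74, Zbtb46, Cd207, Epcam and Ifng, and the names Erap1, Psme1, Psme2, Mfge8, Mrc1, Ms4a1, Cd79a, Cd79b, Cd274, Ly75, Id2 and Csf2rb, were added after their values were seen. So were the names Ccr7, Csf3r, S100a8, S100a9, Lyz2, Csf1r and Adgre1. Alternatives were DESeq2 1.42.0, DESeq2 size factors, library totals alone, limma-voom 3.58.1, no filter, a minimum mean of 5 CPM, 2-group fits, spread without robust weights, the letter in the title or a skeletal muscle list as a covariate, and leaving out each library. Other marker lists covered keratinocytes, fibroblasts, endothelium, adipocytes and skeletal muscle, and part of a B cell list is not reported here. The floor of 3 counts covers counting error only.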

Additional observations from a re-analysis of the deposited data

Results flagged for a closer look

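The 5 TD and 4 strain libraries were screened, gene by gene, for a library whose gap to its nearest neighbour took up most of its group's range on the log2 scale. Of 70 group values, 9 stood apart, and chance gives about 3.5. TD replicate 3 was the highest TD library for 5 class I genes: H2-K1 at 1034 CPM above the next at 821, H2-Q4 at 275 above 174, B2m at 1390.4 above 1098, Tap1 at 125 above 86.1, and Psmb9 at 44.0 above 31.1. In the same library Fscn1 was lowest, at 101 CPM below the next at 137. TD replicate 1 was lowest for Cd86, at 8.31 CPM below 13.0, and for Zbtb46, at 9.42 below 10.6. Strain replicate 4 was lowest for Epcam, at 30.1 CPM below 53.7. Genes of one library are not independent, so the 9 values are not 9 separate events.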

How the results depend on the processing

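No alternative reversed a direction among the 482 values computed for single genes under the alternatives: 353 kept direction and side of the threshold and 129 kept direction but no longer passed. Values were computed only for members past the threshold in that comparison with TD, and for the 2 with the smallest p for Strain against No Strain. Members picked for their change tend to keep its direction, and the other members are not covered. For Strain against TD, where 7 genes passed, DESeq2 called 18 (15 higher, 3 lower), no filter on low counts left 3, and the skeletal muscle covariate left 0. Leaving out 1 library gave 2 to 17. For No Strain against TD, where 13 passed, library totals alone gave 8, no filter gave 6, the muscle covariate gave 2, and leaving out 1 library gave 2 to 18. For Strain against No Strain every alternative gave 0. Scaling by library totals moved the split over all genes for No Strain against TD from 1741 higher and 1564 lower to 1257 and 2046. Apart from fewer samples or another set of genes tested, the cause was not tested. No paired analysis was possible because the labels give no replicate numbers shared between groups. When the letter in the title entered the fit, 6 genes passed for Strain, 3 of them among the 7, and 14 for No Strain, 11 of them among the 13; calls over all genes for Strain fell from 2349 to 798. Few counts, for H2-Oa in every library and for Ifng in TD and strain replicate 1, limit the precision of their changes.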

Other observations

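Of the skin marker lists, keratinocytes had 0 of 6 genes lower under strain and 1 of 6 without strain, adipocytes 4 and 5 of 6 and skeletal muscle 6 and 2 of 8. Endothelium had 4 and 4 of 5 genes higher, and fibroblasts 0 and 0 of 6. Beside these counts, 6.41% of all genes were lower under strain and 8.40% without strain, and 6.20% and 9.35% were higher.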
